A study of Mus musculus with 8 samples.

Results

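The genes of the type I interferon response were followed through the chromatin of sorted splenic conventional type 1 dendritic cells (cDC1). The 41 genes were chosen by name as interferon-stimulated genes. Every region of the count table that lay inside a gene or within 1 kb of either end of its span on GRCm38 was taken, and a region shared by 2 genes was counted once. This gave 75 of 59906 regions, at 37 of the 41 genes. Ifit3, Ifit3b, Oas1a and Oasl1 had no region in the table.

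Type I interferons signal through the receptor IFNAR, the kinases JAK1 and TYK2 and a complex of transcription factors that includes STAT2 and IRF9 and binds the interferon-stimulated response element (ISRE) of their target genes. A different element of interferon target genes is the gamma-activated site (GAS). The target genes encode sensors of foreign nucleic acid, enzymes that block viral replication, GTPases that take part in defence against intracellular pathogens, and chemokines for T cells. In cDC1, which present captured antigen to CD8 T cells, interferon signalling is known to aid cross-priming against tumours.

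Accessible chromatin was read out with ATAC-seq: a transposase places sequencing adapters where DNA is open. The 8 libraries were 4 from WT mice and 4 from CD11c-Cre;OPA1 flox mice, called OPA1-deficient here, all of splenic cDC1 purified by sorting. OPA1 is a GTPase that fuses the inner mitochondrial membrane, and CD11c-Cre acts in CD11c-expressing cells, which are not only cDC1. The labels name no treatment beyond the genotype, and the age of the mice, the CD11c-Cre line, whether WT mice carried Cre and how libraries map to animals are not stated in those labels. P-values therefore rest on how far these libraries differ among themselves, and that spread may be technical.

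Counts in regions totalled 4660826 to 7590578 per library, and the median count was 56 per interferon response region and library. Levels are CPM (each count scaled to a common library size) scaled by TMM factors, differences are OPA1-deficient minus WT on the log2 scale with their standard error, and values of single libraries are listed in the order of the replicate numbers. The 1 region at Opa1 (chr16:29579132-29579622) was at 37.8 to 47.0 CPM in WT, against 34.6 to 43.0 CPM in OPA1-deficient libraries. Which exons were floxed was not given, so the region checks no genotype. All 8 cDC1 marker genes had regions, 43 in all. These summed to 575.9 ± 18.1 CPM in WT, against 584.8 ± 11.1 CPM in OPA1-deficient libraries (SD, n = 4). Their median WT level was 16.7 CPM per kb of region, against 20.1 CPM per kb over all 59906 regions. Of the 43, 6 (14.0%) had an edgeR unadjusted p under 0.05, 3 higher and 3 lower, against 6.38% of all tested regions. None was called. Markers of other cells had regions too, with medians from 13.05 CPM per kb (NK cell, 2 regions) to 70.2 CPM per kb (T cell, 2 regions). Of 5 T cell marker genes, Cd3d (109.2 CPM per kb in WT) and Lck (31.2 CPM per kb) had a region, and Cd3e, Cd3g and Cd8b1 had none. Regions of 4 B cell marker genes summed to 61.7 ± 3.79 CPM in WT, against 67.7 ± 5.78 CPM in OPA1-deficient libraries. Regions were found at 4 of 5 neutrophil, 4 of 5 red cell, 4 of 5 plasmacytoid dendritic cell, 3 of 5 cDC2 and 2 of 4 NK cell marker genes. The 19 regions of 9 monocyte and macrophage marker genes, none of which was without a region, summed to 128.0 to 143.7 CPM in WT, against 110.3 to 121.8 CPM in OPA1-deficient libraries, and these ranges did not overlap.

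RefSeq promoters on GRCm38.p6, each from 250 bases before to 50 after a gene start, were listed for 32 of the 41 genes. The 250 bases before the start were searched on both strands for an ISRE core, taken as GAAA, any 2 bases and GAAA (TTTC, any 2 bases and TTTC on the other strand). It was found in 17 of the 32 genes (53.1%) and in 17 of their 39 listed promoters (43.6%), against 978 of all 32851 listed promoters (2.98%) and 316 of the 12430 with a region over them (2.54%). The GAS core TTCNNNGAA was found in 10 of the 32 genes (31.2%) and 10 of their 39 promoters (25.6%), against 7.02% of all promoters. An ETS-IRF core, GGAA, any 2 bases and GAAA (TTTC, any 2 bases and TTCC), known as a site for a complex of PU.1 or another ETS factor with IRF4 or IRF8, was found in Gbp5, Ifi44, Igtp and Irgm2, or 10.3% of the 39 promoters against 2.30% of all. The ISRE, ETS-IRF and GAS cores can overlap one another. A match is a run of letters and was not tested as a binding site.

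The 4 sequences that follow are those of the most open promoters with an ISRE core. They show where the core lay in chromatin that was open in WT cDC1. Each runs from 250 bases before the start to the base before it, 5′ to 3′ on the gene's strand, with matches to the ISRE or GAS core in capitals. Cxcl10 is at chr5:92348890-92349139, Rsad2 at chr12:26456453-26456702, Isg15 at chr4:156200819-156201068 and Bst2 at chr8:71537473-71537722, all on the minus strand.
Cxcl10: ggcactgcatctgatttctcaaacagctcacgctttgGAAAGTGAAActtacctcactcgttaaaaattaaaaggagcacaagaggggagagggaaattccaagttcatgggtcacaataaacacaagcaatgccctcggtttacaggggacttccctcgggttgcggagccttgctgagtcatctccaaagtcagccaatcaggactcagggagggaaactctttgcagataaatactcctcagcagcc
Rsad2: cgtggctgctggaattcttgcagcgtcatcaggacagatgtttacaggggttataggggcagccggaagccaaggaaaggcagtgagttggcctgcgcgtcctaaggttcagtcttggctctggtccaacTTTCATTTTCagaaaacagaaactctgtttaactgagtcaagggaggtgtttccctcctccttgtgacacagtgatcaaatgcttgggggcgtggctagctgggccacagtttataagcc
Isg15: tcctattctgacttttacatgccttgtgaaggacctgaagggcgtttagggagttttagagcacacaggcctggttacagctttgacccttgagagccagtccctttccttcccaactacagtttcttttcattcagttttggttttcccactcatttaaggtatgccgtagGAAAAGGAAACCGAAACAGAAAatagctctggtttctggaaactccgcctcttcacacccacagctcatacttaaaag
Bst2: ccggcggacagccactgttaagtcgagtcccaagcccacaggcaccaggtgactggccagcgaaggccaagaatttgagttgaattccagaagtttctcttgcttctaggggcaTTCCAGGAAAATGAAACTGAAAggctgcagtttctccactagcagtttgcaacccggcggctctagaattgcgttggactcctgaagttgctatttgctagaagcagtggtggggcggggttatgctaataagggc
In Cxcl10 the core GAAAGTGAAA lay from 213 to 204 bases before the start, and in Rsad2 the core TTTCATTTTC from 120 to 111 bases before it. Isg15 held 3 overlapping ISRE cores between 78 and 57 bases before the start. Bst2 held 2 overlapping ISRE cores, from 130 to 115 bases before the start, preceded by a GAS core, TTCCAGGAA, that overlapped the first.

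A further pair of promoters is printed because regions over them were among those with the smallest unadjusted p in the comparison of genotypes. Ifit1 is at chr19:34640639-34640888 on the plus strand and this promoter of Trim30a at chr7:104446126-104446375 on the minus strand.
Ifit1: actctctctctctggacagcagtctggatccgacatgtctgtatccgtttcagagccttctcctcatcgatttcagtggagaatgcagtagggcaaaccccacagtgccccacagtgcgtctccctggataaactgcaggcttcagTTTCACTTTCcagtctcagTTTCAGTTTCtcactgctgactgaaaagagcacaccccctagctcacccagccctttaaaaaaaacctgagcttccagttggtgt
Trim30a: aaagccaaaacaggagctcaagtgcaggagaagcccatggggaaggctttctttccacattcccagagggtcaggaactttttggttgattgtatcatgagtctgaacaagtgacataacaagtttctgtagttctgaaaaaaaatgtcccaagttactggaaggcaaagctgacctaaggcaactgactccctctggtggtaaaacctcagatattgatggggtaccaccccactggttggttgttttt
Ifit1 held 2 ISRE cores, TTTCACTTTC at 104 to 95 and TTTCAGTTTC at 85 to 76 bases before the start. The same 2 letter runs stood in the listed promoters of Ifit3 and Ifit3b, which had no region. The Trim30a window held none of the 3 motifs, while its other listed promoter held an ISRE core, TTTCTTTTTC, from 36 to 27 bases before the start.

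A region was present at 37 of the 41 interferon response genes, in a set of regions common to both genotypes. WT levels ran from 7.90 CPM per kb of region over the Ifi44 promoter to 140.7 CPM per kb at Isg20. The median WT level of the 75 regions was 25.2 CPM per kb of region, against 20.1 CPM per kb over all 59906 regions, and 49 of the 75 lay above that overall median. Regions over a listed promoter of any gene had a higher median, 55.3 CPM per kb, and the 30 over a listed promoter of an interferon response gene had a median of 33.5 CPM per kb. Another 20 regions lay within 1 kb of a gene end, meaning either boundary of the gene span, and had a median of 23.2 CPM per kb. The 25 inside genes had one of 19.4 CPM per kb. Of the 75 regions, 5 were among the most open 10% of the table and 6 among the least open 10%.

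The most open region of a gene lay over a listed promoter in 24 of the 37 genes, within 1 kb of a gene end in 8 and inside the gene in 5. Dhx58, Zbp1, Oas2, Mx1, Mx2, Usp18, Parp9, Parp14 and Ifi27 had no listed promoter. Their leading regions could only be classed as gene end or inside, so those classes do not mean away from a gene start. In 10 genes the most open region exceeded the median of all promoter regions, and in 4 genes it was below the median of all regions. The 3 highest were Isg20 at 140.7 CPM per kb, Samhd1 at 126.3 CPM per kb and Trim25 at 103.2 CPM per kb. The lowest was Ifi44, whose regions reached 11.1 CPM per kb. Promoter regions with an ISRE core in the window had WT levels of 23.2 to 71.4 CPM per kb (n = 13, median 35.05), and those without had 7.90 to 140.7 CPM per kb (n = 17, median 30.5). The extremes at both ends of the order were thus promoters without the core.

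**Figure D1:**
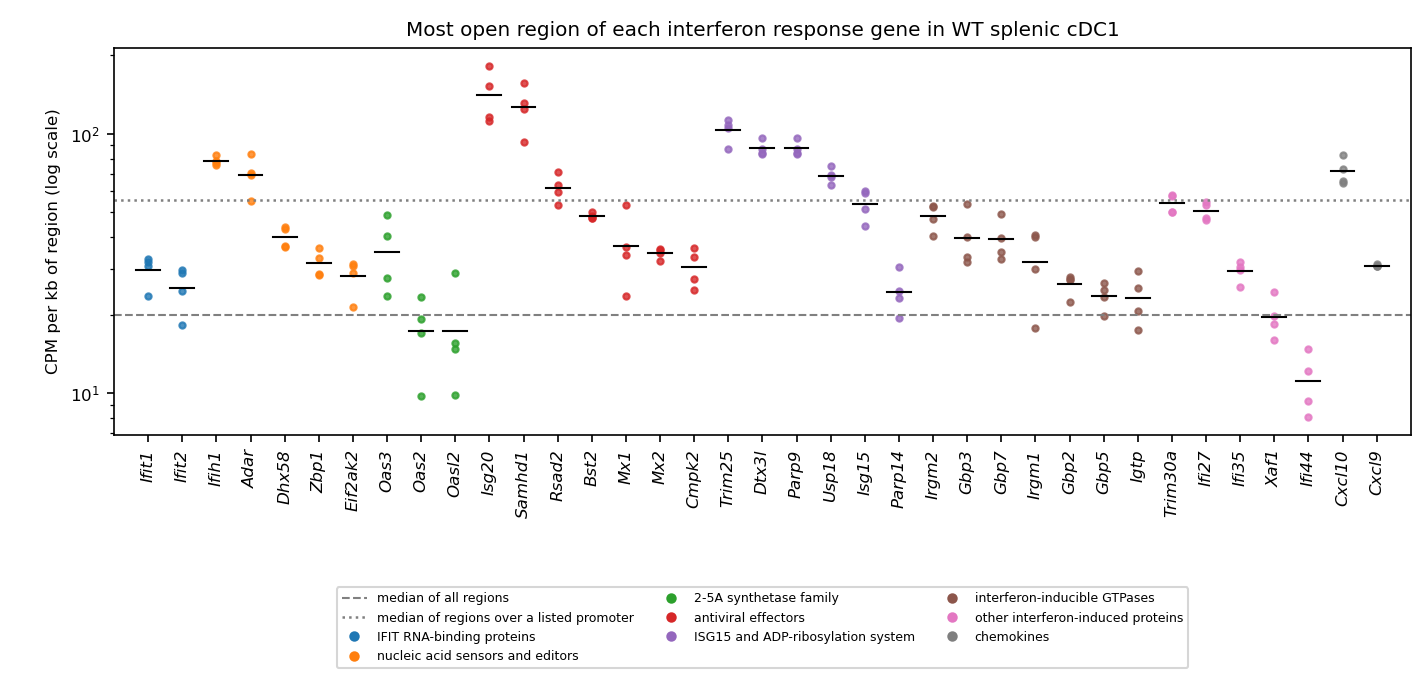
WT level of the most open region of each gene with a region, in CPM per kb of region on a log axis, by role; points are the 4 WT libraries and bars their mean. Isg20, Samhd1 and Trim25 stand highest, and Ifi44, Oasl2, Oas2 and Xaf1 lie under the dashed median of all regions (20.1 CPM per kb); the dotted line is the median of regions over any listed promoter (55.3), and Parp9 and Dtx3l show the same shared region.

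Regions over a listed promoter were found at 27 genes, with centres from −220 to 350 bases relative to the nearest start. Among genes with a listed start, regions more than 1 kb away were at most at 25.2 CPM per kb, apart from 1 inside Trim25 (63.0 CPM per kb), 1 inside Ifih1 (41.5 CPM per kb) and 1 inside Adar (38.7 CPM per kb), which are named after their values were seen.

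**Figure D2:**
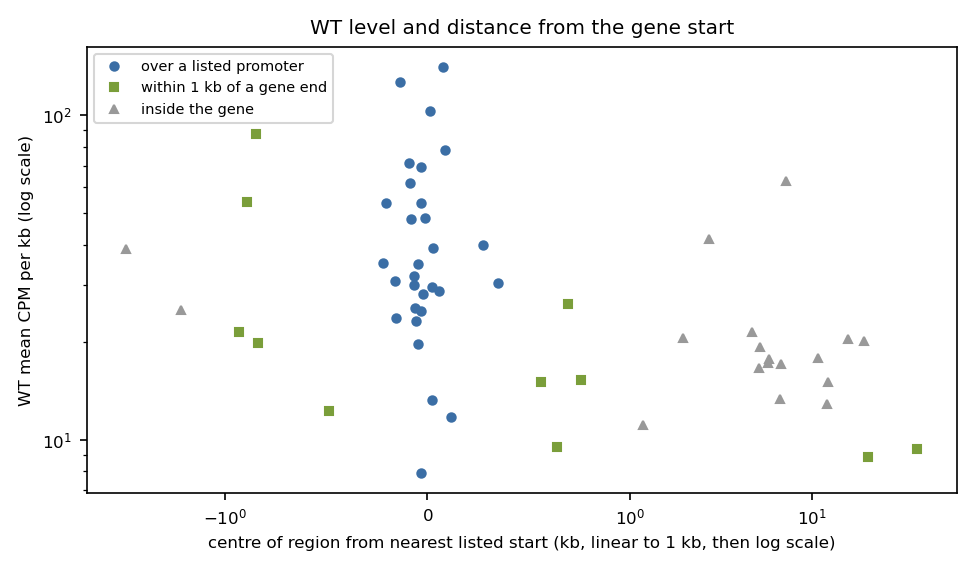
WT mean level of each region (CPM per kb, log axis) against the distance of its centre from the nearest listed start of its gene (kb, linear up to 1 kb and logarithmic beyond), for the genes with a listed promoter. Circles are regions over a listed promoter, squares regions within 1 kb of a gene end and triangles regions inside the gene; the highest circles are Isg20 (140.7), Samhd1 (126.3) and Trim25 (103.2).

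The libraries labelled OPA1-deficient were then compared with the WT libraries. By the quasi-likelihood test of edgeR with Benjamini-Hochberg adjustment, called at 0.05, 0 of 75 regions of the interferon response genes were called, where 0.0203% of all 59247 tested regions were, and the smallest edgeR adjusted p was 0.623. DESeq2 also called 0 of the 75. At an unadjusted p under 0.05 there were 3 of the 75 (4.00%), against 6.38% of all tested regions. All 3 were lower in OPA1-deficient libraries and 0 were higher, where 3.46% of all regions were lower and 2.92% higher at that p. Their number was 5 without WT replicate 3 and 1 without OPA1-deficient replicate 1, when 5.48% and 5.96% of all tested regions had such a p. Groups did not overlap at 2 of the 75 regions, both lower in OPA1-deficient libraries, against 2.11% of all tested regions lower and 1.84% higher without overlap.

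Differences ranged from −0.66 to 0.75, with a median of −0.04, against −0.004 over all tested regions. Values were below 0 at 44 of the 75 regions (58.7%), against 50.7% of all tested regions. Over a listed promoter, 21 of 30 were below 0 (median −0.05), against 61.3% of all 9740 tested promoter regions (median −0.03), of which 4.28% had an unadjusted p under 0.05. At gene ends 10 of 20 and inside genes 13 of 25 were below 0. The median was 0.002 without OPA1-deficient replicate 1, so its direction rested on that library. Standard errors ran from 0.11 to 0.47 with a median of 0.22, which sets the size of difference that 4 libraries a group could show at these regions.

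**Figure D3:**
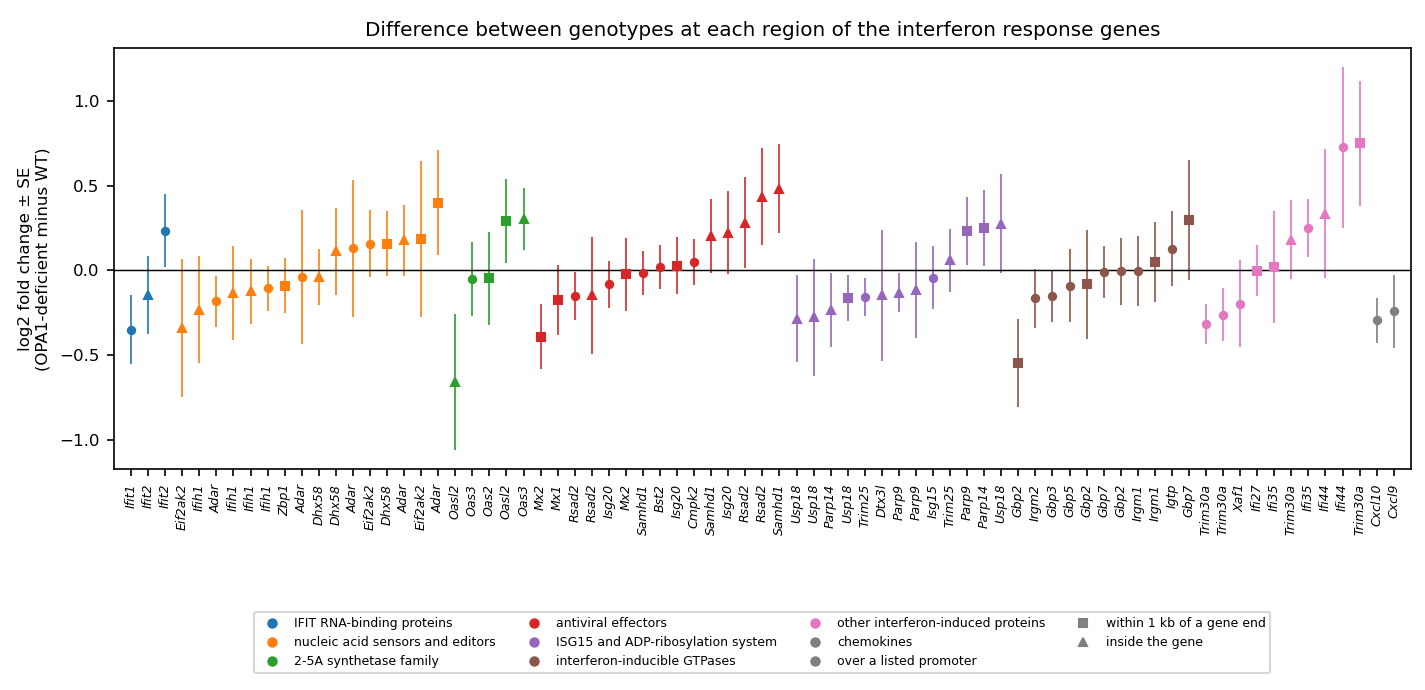
Log2 fold change (OPA1-deficient minus WT) with its standard error for each of the 75 regions, ordered within each role by value; colours are roles and marker shapes the position of the region. Values lie on both sides of 0, from −0.66 at a region inside Oasl2 to 0.75 at a gene end of Trim30a, and none passed the test.

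Summed over the 75 regions, the level was 1051, 1096, 1044 and 1087 CPM in the WT libraries and 995, 1050.5, 1056 and 1021 CPM in the OPA1-deficient libraries. The ratio of the group means was 0.964, and the groups overlapped. Over the 30 promoter regions the sums were 647 ± 27.3 and 608 ± 15.7 CPM (SD, n = 4), also overlapping, and over the 25 regions inside genes 190 ± 14.0 and 197 ± 3.55 CPM. No p is given for these sums, which add up genes chosen with earlier results of these data known. In bulk libraries, fewer open cells and less opening per cell cannot be told apart. The sums of monocyte and macrophage marker regions were also lower in OPA1-deficient libraries (117.1 ± 4.84 against 133.1 ± 7.27 CPM), and their part in these values was not tested.

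**Figure D4:**
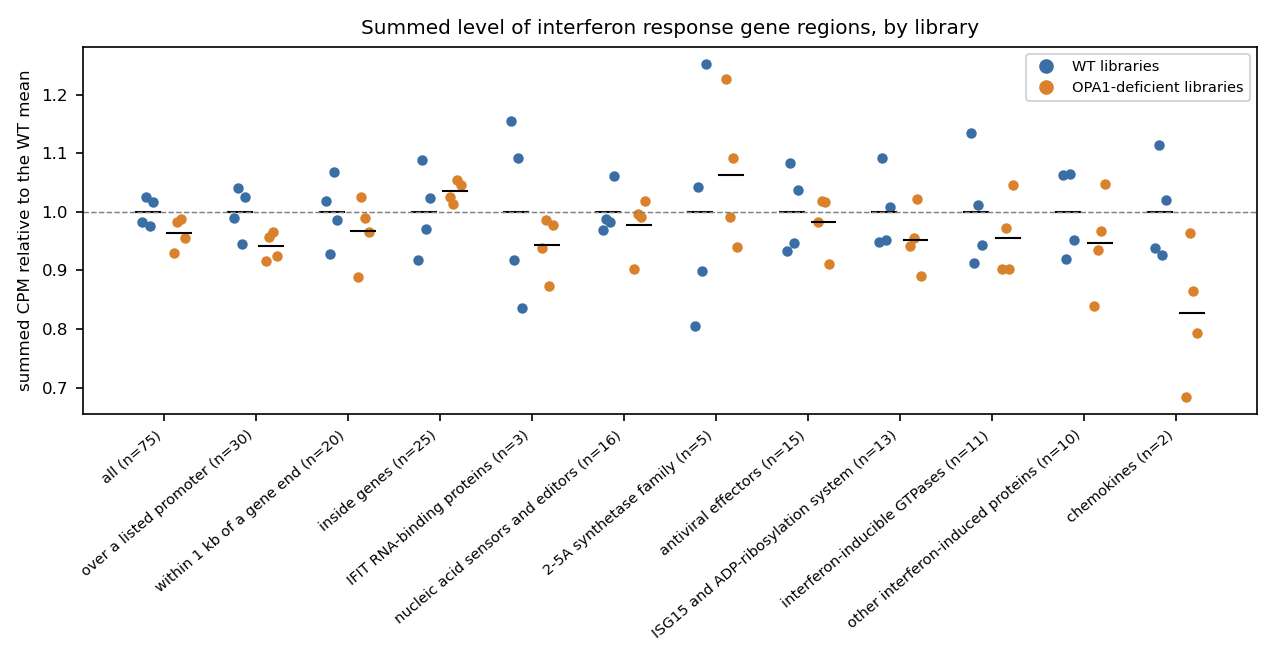
Summed CPM of the interferon response regions in each library relative to the WT mean of the same set, for all 75, by position and by role; points are libraries and lines group means. The groups overlap for all 75 regions (OPA1-deficient to WT ratio 0.964) and for each role, where the ratio runs from 0.827 for the chemokines to 1.06 for the oligoadenylate synthetases.

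The chemokine genes Cxcl9 and Cxcl10 encode ligands of CXCR3 that draw activated T cells, and each had 1 region, over its promoter. At Cxcl10 (chr5:92348765-92349195) levels were 28.1, 35.7, 27.6 and 31.4 CPM in WT, against 23.9, 27.2, 25.5 and 23.8 CPM in OPA1-deficient libraries. Every OPA1-deficient library lay below every WT library, and the region also lay within 1 kb of Art3. The difference, −0.29 ± 0.13, was not called (edgeR adjusted p = 0.744, two-sided exact permutation p = 0.0286, the smallest that 4 against 4 allows). At Cxcl9 (chr5:92328036-92328441) the WT libraries were nearly equal, at 12.5, 12.5, 12.4 and 12.7 CPM, while the OPA1-deficient libraries were at 5.69, 14.5, 11.9 and 10.5 CPM. OPA1-deficient replicate 1 was the lowest of the 8, and the difference of −0.24 ± 0.22 (edgeR adjusted p = 0.903) was −0.03 without it.

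Trim30a, a TRIM protein known to restrain NF-κB signalling, had the region with the smallest p of all 75. It lay over the promoter printed above (chr7:104445955-104446701), at 43.2, 37.1, 42.8 and 37.3 CPM in WT, against 29.6, 31.9, 31.0 and 36.2 CPM in OPA1-deficient libraries. All OPA1-deficient values were below all WT values, and the difference was −0.32 ± 0.12 (edgeR adjusted p = 0.623, exact permutation p = 0.0286). Over the other listed promoter (chr7:104465008-104465817), the one with the ISRE core, levels were 32.8, 24.2, 30.6 and 25.8 CPM against 16.9, 22.5, 26.0 and 29.2 CPM, and the groups overlapped (−0.26 ± 0.16, edgeR adjusted p = 0.828). At the far end of the gene (chr7:104408279-104408549) the difference had the opposite sign, 0.75 ± 0.37 (edgeR adjusted p = 0.784), from 2.43, 1.40, 5.06 and 1.26 CPM in WT to 3.84, 3.44, 4.69 and 4.59 CPM in OPA1-deficient libraries. WT replicate 3 held the highest of these 8 values, and without it the difference was 1.28.

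Among the other induced genes, Ifi44, an antiviral cytoplasmic protein gene, had the least open leading region of the 37 genes. Over its promoter (chr3:151749837-151750045) the counts were 2 to 28 per library, or 2.13, 1.87, 0.42 and 2.15 CPM in WT, against 2.42, 0.73, 3.35 and 4.59 CPM in OPA1-deficient libraries (0.73 ± 0.47, edgeR adjusted p = 0.851). The second region, inside the gene (chr3:151748626-151748826), was at 11.1 CPM per kb in WT (0.33 ± 0.38, edgeR adjusted p = 0.928). Together with those of Trim30a, Ifi27, Ifi35 and Xaf1 these made 10 regions, 6 above 0 and 4 below.

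The IFIT genes encode proteins that bind viral RNA and block its translation. Ifit1 had 1 region, over the promoter with 2 ISRE cores (chr19:34640646-34641001), at 11.7, 11.4, 10.97 and 8.43 CPM in WT, against 9.81, 9.06, 7.91 and 6.56 CPM in OPA1-deficient libraries. WT replicates 1 to 3 lay above all OPA1-deficient libraries, and WT replicate 4 lay among them (−0.35 ± 0.21, edgeR adjusted p = 0.826). The region also lay within 1 kb of the related genes Ifit1bl1 and Ifit1bl2. The promoter region of Ifit2 (chr19:34550464-34550798) pointed the other way, at 9.73, 8.26, 9.91 and 6.10 CPM in WT, against 8.25, 11.2, 8.71 and 11.97 CPM in OPA1-deficient libraries (0.23 ± 0.22, edgeR adjusted p = 0.908). Ifit3 and Ifit3b are near-identical neighbours, and whether reads that fit both genes were kept was not given in the sources used here.

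Sensors and editors of nucleic acid held 16 regions, 9 below 0 and 7 above, with a median of −0.04. The most open was the promoter of Ifih1, which encodes the double-stranded RNA sensor MDA5 (chr2:62645937-62646402, 78.5 CPM per kb in WT). Its levels were 35.7, 35.2, 38.4 and 36.6 CPM in WT, against 25.6, 32.4, 35.7 and 41.8 CPM in OPA1-deficient libraries, so the OPA1-deficient libraries spread on both sides of the WT values (−0.11 ± 0.13, edgeR adjusted p = 0.936). Without OPA1-deficient replicate 1 the difference was 0.01. The promoter of Eif2ak2, which encodes the RNA-activated kinase PKR, was the least open of the group's leading regions (chr17:78882416-78882770, 28.2 CPM per kb). It was at 10.9, 10.3, 7.59 and 11.1 CPM in WT, against 11.1, 9.61, 13.4 and 10.5 CPM in OPA1-deficient libraries (0.16 ± 0.20, edgeR adjusted p = 0.937). Adar, the adenosine deaminase that edits double-stranded RNA, had the most regions of any gene, 5, and Dhx58 and Zbp1, a regulator of MDA5 and a sensor of left-handed nucleic acid, had 3 and 1, all with edgeR adjusted p of 0.882 or more.

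The oligoadenylate synthetases make the messenger that activates RNase L. Their 5 regions were among the less open, with a median of 17.4 CPM per kb. Oas3 led, over a promoter with an ISRE core (chr5:120777538-120777868), at 9.12, 13.2, 7.81 and 16.0 CPM in WT, against 13.9, 11.1, 11.3 and 8.20 CPM in OPA1-deficient libraries (−0.05 ± 0.22, edgeR adjusted p = 0.987). A second region inside Oas3 (chr5:120775356-120776061) was at 10.2, 15.4, 13.3 and 19.0 CPM in WT, against 20.3, 18.1, 16.9 and 15.9 CPM in OPA1-deficient libraries (0.30 ± 0.18, edgeR adjusted p = 0.8286). In this region 3 of 4 WT values lay below all OPA1-deficient values, and WT replicate 4 lay among them. Oasl2 was least open, and its region inside the gene (chr5:114902567-114902767) was at 5.78, 3.12, 2.95 and 1.97 CPM in WT, against 2.84, 1.09, 3.35 and 1.31 CPM in OPA1-deficient libraries. That gave the lowest difference of all 75 regions, −0.66 ± 0.40 (edgeR adjusted p = 0.834), which was −0.28 without WT replicate 1.

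**Figure D5:**
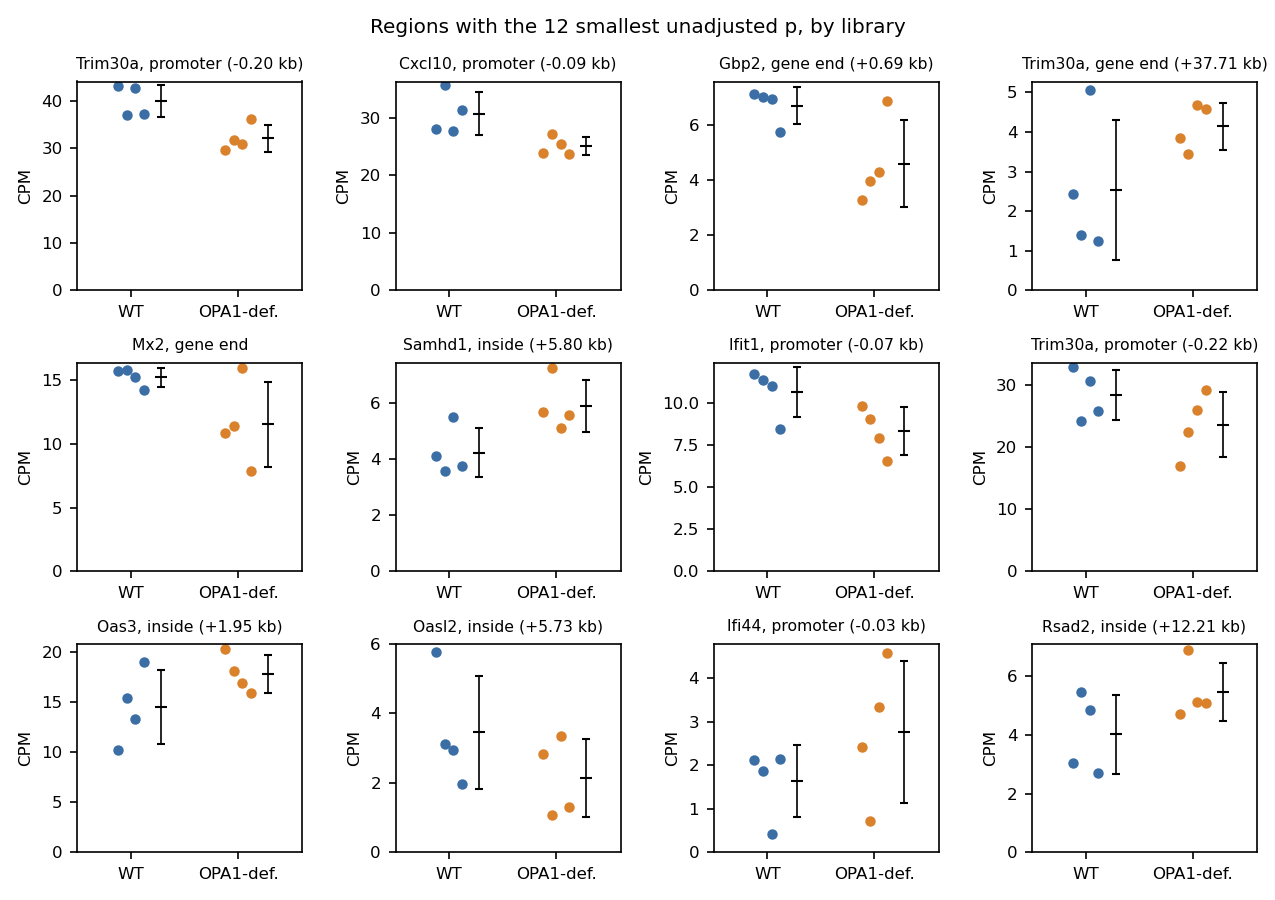
CPM in each library at the 12 regions with the smallest unadjusted p, in order of p from top left; points are libraries, and bars to the right of each group its mean ± SD (n = 4). Titles give the gene, the position and the distance of the centre from the nearest listed start where one is listed; the groups are separate at the first Trim30a region and at Cxcl10 and overlap at the other 10.

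The antiviral effectors held the most open regions of the set. Isg20 encodes an exonuclease that degrades viral RNA, and its promoter (chr7:78913546-78914135) was at 65.8, 107, 68.3 and 89.8 CPM in WT, against 82.8, 77.9, 88.5 and 63.8 CPM in OPA1-deficient libraries. The WT libraries spanned nearly the whole range of the OPA1-deficient ones (−0.08 ± 0.14, edgeR adjusted p = 0.958), and the difference was 0.07 without WT replicate 2. Samhd1 encodes a triphosphohydrolase that depletes deoxynucleotides, and its promoter (chr2:157134997-157135468) was at 43.6, 73.9, 58.6 and 61.9 CPM in WT, against 59.0, 62.7, 65.4 and 47.7 CPM in OPA1-deficient libraries (−0.02 ± 0.13, edgeR adjusted p = 0.995). A region inside Samhd1 (chr2:157129174-157129412) was at 4.10, 3.58, 5.48 and 3.77 CPM against 5.69, 7.25, 5.09 and 5.58 CPM, with only WT replicate 3 reaching into the OPA1-deficient range (0.48 ± 0.26, edgeR adjusted p = 0.821).

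Rsad2 and Cmpk2 are neighbours on chromosome 12 that encode viperin, which makes a chain-terminating nucleotide, and the kinase that supplies its substrate. Over the Rsad2 promoter (chr12:26456323-26456751) levels were 25.5, 22.6, 27.2 and 30.5 CPM in WT, against 22.5, 21.9, 23.6 and 26.9 CPM in OPA1-deficient libraries (−0.15 ± 0.14, edgeR adjusted p = 0.907). Deep inside the gene (chr12:26444113-26444378), a small region was at 3.04, 5.45, 4.85 and 2.69 CPM against 4.69, 6.89, 5.09 and 5.08 CPM (0.43 ± 0.29, edgeR adjusted p = 0.854). Cmpk2 (chr12:26469085-26470046) was the widest of the 75 regions at 961 bp and held 34.7, 26.3, 24.0 and 32.1 CPM in WT, against 31.4, 33.4, 28.3 and 28.7 CPM in OPA1-deficient libraries (0.05 ± 0.14, edgeR adjusted p = 0.979). Bst2, which encodes tetherin, a membrane protein that holds budding virions, was at 28.1, 27.1, 26.6 and 26.5 CPM in WT, against 28.02, 28.6, 24.7 and 28.5 CPM in OPA1-deficient libraries (chr8:71537202-71537765, 0.02 ± 0.13, edgeR adjusted p = 0.995).

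Mx1 and Mx2, genes of dynamin-like GTPases that trap viral nucleoproteins, are transcribed pseudogenes in the annotation, as laboratory strains carry defective copies. A region over the lower-coordinate boundary of the Mx2 span (chr16:97535842-97536281) was at 15.7, 15.7, 15.2 and 14.2 CPM in WT, against 10.8, 11.4, 16.0 and 7.87 CPM in OPA1-deficient libraries. OPA1-deficient replicate 3 lay above all WT libraries and the other 3 below them (−0.39 ± 0.19, edgeR adjusted p = 0.785).

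ISG15 is a ubiquitin-like protein that is joined to target proteins, USP18 removes it and dampens the receptor, and TRIM25 is a ligase of the same system. Of the 13 regions of this group and the ADP-ribosylation genes, 9 were below 0 and 4 above, with a median of −0.13. The Trim25 promoter (chr11:88999168-88999662) was at 51.8, 55.6, 43.0 and 53.4 CPM in WT, against 44.5, 49.5, 50.0 and 39.4 CPM in OPA1-deficient libraries (−0.16 ± 0.11, edgeR adjusted p = 0.872). Isg15, with its 3 ISRE cores (chr4:156200741-156200961), was at 13.2, 12.9, 9.70 and 11.3 CPM in WT, against 10.8, 11.6, 11.7 and 11.97 CPM in OPA1-deficient libraries, which lay within the WT range (−0.04 ± 0.18, edgeR adjusted p = 0.988). The most open region at Usp18, over a gene end (chr6:121245655-121246045), was at 24.8, 29.1, 27.0 and 26.5 CPM against 21.9, 21.8, 26.8 and 25.3 CPM (−0.16 ± 0.14, edgeR adjusted p = 0.893).

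PARP9 and its partner DTX3L form a complex that joins ADP-ribosylation to ubiquitin, and their genes are neighbours that shared 2 regions, the only shared ones among the 41 genes. The stronger (chr16:35939635-35940107) was at 41.2, 39.3, 39.7 and 45.6 CPM in WT, against 37.8, 40.8, 40.4 and 32.1 CPM in OPA1-deficient libraries (−0.13 ± 0.12, edgeR adjusted p = 0.900). The other lay over the listed Dtx3l promoter (chr16:35938804-35939133), at 10.6, 9.04, 11.2 and 6.99 CPM against 12.2, 11.1, 9.92 and 11.2 CPM (0.23 ± 0.20, edgeR adjusted p = 0.900). Parp14, a mono-ADP-ribosyltransferase gene, was the least open of the group, with its leading region inside the gene (chr16:35869094-35869462) at 24.4 CPM per kb (−0.23 ± 0.22, edgeR adjusted p = 0.910).

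The interferon-inducible GTPases, the guanylate-binding proteins and the smaller IRG proteins, take part in defence against intracellular pathogens. Of their 11 regions 8 were below 0, with a median of −0.01. A region centred 695 bases after the Gbp2 start (chr3:142621230-142621486) had an edgeR unadjusted p of 0.0441. Its difference was the second-lowest of the set, −0.55 ± 0.26 (edgeR adjusted p = 0.770). Its levels were 7.15, 7.01, 6.96 and 5.74 CPM in WT, against 3.27, 3.99, 4.29 and 6.89 CPM in OPA1-deficient libraries, so that replicate 4 of each group fell among the values of the other. The Gbp2 promoter itself (chr3:142620429-142620839) was at −0.01 ± 0.20. Irgm2 was the most open (chr11:58214732-58215056), at 17.03, 13.1, 15.2 and 16.9 CPM in WT, against 11.5, 15.6, 13.4 and 15.1 CPM in OPA1-deficient libraries (−0.17 ± 0.17, edgeR adjusted p = 0.922). Its neighbour Igtp was the least open (chr11:58199332-58199671), at 6.99, 9.97, 5.91 and 8.61 CPM against 7.54, 9.24, 7.64 and 10.3 CPM (0.13 ± 0.22, edgeR adjusted p = 0.958). The listed promoters of both genes held an ISRE, a GAS and an ETS-IRF core within 75 bases of the start. GBP and IRG genes lie in clusters of similar copies, so their counts are uncertain where reads fit more than 1 copy.

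The pathway upstream of these genes was taken from a list of 35 ligand, receptor, kinase, STAT, IRF, sensor and inhibitor genes, of which 32 had 106 regions, 104 of them tested. Ifnb1 and Ifng, the ligand genes, and Trex1, a DNA exonuclease gene, had none. No region was called; the median difference was 0.01. At an unadjusted p under 0.05, 3 were higher and 4 lower (6.73% in all), against 2.92% of all tested regions higher and 3.46% lower. The groups did not overlap at 4 higher and 1 lower (4.81% in all), against 1.84% and 2.11% of all tested regions. The receptor gene Ifnar1 had a higher level than any region of the interferon response genes, 229.2 CPM per kb in WT (chr16:91484836-91485437, 137.7 ± 16.0 against 138.5 ± 14.6 CPM, SD, n = 4; 0.01 ± 0.09, edgeR adjusted p = 0.997). The promoters of Stat2 and Irf9, whose products belong to the complex that binds the ISRE, were also open and near 0. Stat2 was at 107.4 CPM per kb (0.03 ± 0.10) and Irf9 at 65.4 CPM per kb (−0.04 ± 0.10) over promoters. The most open region of Ifnar2, inside the gene, was at 103.9 CPM per kb (−0.10 ± 0.15), and the promoter of Irf7, the factor that amplifies interferon production, at 41.8 CPM per kb (−0.02 ± 0.13).

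Among the pathway regions with the smallest p, those inside Ikbke, a kinase that activates IRF3 (0.64 ± 0.26, edgeR adjusted p = 0.682), and Jak2 (0.66 ± 0.29, edgeR adjusted p = 0.719) were higher in every OPA1-deficient library than in any WT library. A region at a gene end of Myd88, the adaptor of Toll-like receptors, was at 130.2 CPM per kb in WT and also lay within 1 kb of Acaa1a (chr9:119340881-119341565). It was at 94.3, 86.8, 89.0 and 86.3 CPM in WT, against 97.0, 112.7, 98.1 and 99.5 CPM in OPA1-deficient libraries, without overlap (0.19 ± 0.09, edgeR adjusted p = 0.738). A region inside Traf3 (−0.47 ± 0.21, edgeR adjusted p = 0.729) and a region at a gene end of Tyk2, away from its promoter (−0.98 ± 0.45, edgeR adjusted p = 0.754), were lower on average, with overlapping groups. Counts per library were only 3 to 25 at this Tyk2 region and 12 to 37 at the Jak2 region. The promoter regions of the same genes were at 0.02 ± 0.10 for Traf3, 0.06 ± 0.11 for Tyk2 and 0.003 ± 0.09 for Jak2.

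The library with the highest value varied from region to region. OPA1-deficient replicate 2 was the highest of the 8 libraries at 15 of the 75 regions and OPA1-deficient replicate 1 at 4 (5.33%), against 10.5% and 11.8% of all tested regions. WT replicate 1 was highest at 14 (18.7%) and WT replicate 3 at 3 (4.00%), against 13.2% and 13.4%. Within a group, the coefficient of variation of CPM had a median of 20.3% in WT and 17.03% in OPA1-deficient libraries at these regions, near the 21.3% and 19.6% over all tested regions.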

How the data were processed

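ATAC-seq counts of 8 libraries of sorted splenic cDC1 were analysed, 4 WT and 4 OPA1-deficient. The deposited values are counts per region, whole numbers with no normalization. The submitters' processing notes name the builds mm10 and GRCm38 and the tools MACS2 2.1.0.20150603, bedtools, Picard 1.65, cutadapt 1.9 and SAMtools. The sources used here do not give their roles, any shift of read ends or how the regions were chosen. Coordinates are printed as in the table. Columns were assigned through the library names in the labels.

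Regions were filtered with filterByExpr, which left 59247 of 59906, and tested over all 8 libraries with edgeR 4.0.16 in R 4.3.3 (TMM, estimateDisp, robust glmQLFit, glmQLFTest, no covariates). P-values were adjusted over all tested regions by the Benjamini-Hochberg method and called at 0.05. The standard error is the log2 fold change divided by the square root of F. The procedure was tested on simulated data. Single regions were also compared by a two-sided exact permutation test over 70 assignments.

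All 41 genes matched a RefSeq model on GRCm38.p6 by symbol; exons and introns were not analysed here. The genes, lists and tests were chosen with earlier results of these data known. Named were, in each role, the genes with the highest and lowest leading region in WT, the 12 regions with the smallest p, shared regions, genes without a region, and in the pathway the 6 smallest p and 6 set genes; some items under this rule are not reported here. The promoters of Samhd1, Rsad2, Isg15 and Bst2 and a gene end of Usp18 were added after their values were seen. Libraries of a group differed by more than counting noise (chi-square per degree of freedom 2.16 to 4.79), so they were not copies of one another. This check cannot tell libraries of the same animal from libraries of different animals. The alternatives were DESeq2 1.42.0, other scalings and filters, a replicate block, other distances from the gene and leaving out each library.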

Additional observations from a re-analysis of the deposited data

Results flagged for a closer look

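A check for a library far from the other 3 of its group was made in 88 groups of 4 values, and chance flags about 1 in 20; 5 were found. At the Gbp2 region centred 695 bases after the start, WT replicate 4 was lowest at 5.74 CPM, with the next at 6.96 CPM. Over the Ifi44 promoter, WT replicate 3 was lowest at 0.42 CPM (0.4219), with the next at 1.87 CPM. At Cxcl9, WT replicate 4 was highest at 12.7 CPM, with the next at 12.5 CPM in a group of almost equal values. At Bst2, OPA1-deficient replicate 3 was lowest at 24.7 CPM, with the next at 28.02 CPM. At the gene end of Myd88, OPA1-deficient replicate 2 was highest at 112.7 CPM, with the next at 99.5 CPM.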

How the results depend on the processing

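No interferon response region and no pathway region was called under any alternative: DESeq2's size factors, library totals, the DESeq2 test, no filter, a stricter filter, the replicate block, and leaving out each library, and, for the 75 regions, gene spans only, gene ends only or regions within 5 kb. The number of the 75 with an unadjusted p under 0.05 was 3 as reported and 1 to 5 when single libraries were left out, the lowest without OPA1-deficient replicate 1 and the highest, 5, without WT replicate 3. The median log2 fold change was −0.0454 to 0.00249 in those fits and turned above 0 without OPA1-deficient replicate 1; the cause was not tested. The ratio of summed levels was 0.956 to 0.975 when single libraries were left out and 0.977 with library totals. Over the whole table the number of called regions was 12 as reported, 9 with library totals, 41 with DESeq2, and 1 to 68 when single libraries were left out, with 68 without WT replicate 2. Replicate numbers did not pair the libraries (correlations of same-numbered libraries −0.127, −0.0115, −0.075 and −0.0696); with the replicate block 1 region was called over the table, and for the 75 regions 3 had an unadjusted p under 0.05 and the median was −0.02. Of 43 named regions, 11 turned sign when a library was left out, none of them larger than 0.107 in size as reported, and 0 under DESeq2 or the block. Their ranges were −0.221 to 0.00834 at Ifih1, −0.173 to 0.0699 at Isg20, −0.0210 to 0.149 at Cmpk2, −0.184 to 0.143 at the Oas3 promoter, −5.78e-05 to 0.0669 at Bst2, −0.137 to 0.108 at the Samhd1 promoter, −0.111 to 0.0238 at Isg15, −0.0586 to 0.0838 at Ifnar1, −0.216 to 0.0451 at Ifnar2, −0.0500 to 0.0519 at Irf7 and −0.0141 to 0.0742 at Stat2. Small regions were limited by depth, with counts down to 2 in a library at Ifi44.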
